A study of Rattus norvegicus with 16 samples.

Results

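The mir-200 family of the rat was followed through small RNA libraries of 6 tissues from adult males of 2 inbred strains. Its members were taken by name as the hairpins rno-mir-200a, rno-mir-200b, rno-mir-429, rno-mir-200c and rno-mir-141 (written without rno below), that is 5 of the 392 pre-miRNA hairpins in the files, and reads were found for 9 of their arms among 712 arms in all. BN-Lx is a brown Norway line carrying the polydactyly-luxate syndrome, SHR is the spontaneously hypertensive rat, and no animal was treated. One rat of each strain gave its brain, its liver, its spleen, its heart, its testis and its kidney, all as whole tissue, for 12 libraries, and 4 further whole livers came from 2 more rats of each strain, so that there were 3 livers per strain. Within the six-tissue set a strain is therefore also a single rat, and strain and rat cannot be told apart there.

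The mir-200 miRNAs are known as markers of epithelial cells, where they repress the transcription factors ZEB1 and ZEB2 and so keep E-cadherin expressed. Tubules and collecting ducts of the kidney, bile ducts of the liver and glandular epithelia elsewhere are known to contain them, whereas muscle, neurons and blood cells are known for little of them. The family is made from a pair of transcripts, and each hairpin can release a miRNA from its 5′ arm (5p) and one from its 3′ arm (3p).

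On GRCr8, mir-200b, mir-200a and mir-429 lie in this order on the minus strand of chromosome 5, at chr5:171931495-171931589, chr5:171930717-171930805 and chr5:171929682-171929766. The first bases of their 3p arms are 781 and 1038 bp apart. RefSeq places all of them inside the span of the protein-coding gene Ttll10 and of the long noncoding RNA LOC106182250. The hairpins mir-200c, at chr4:159209965-159210033, and mir-141, at chr4:159209525-159209618, lie on the minus strand of chromosome 4 between Phb2 and Ptpn6, with 428 bp between the first bases of their 3p arms. Whether a hairpin is exonic or intronic was not analysed here.

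The mature sequences show how closely the members resemble each other and where they part. They are given as in RefSeq (GRCr8), with the seed, bases 2 to 8 counted from the 5′ end, in capitals, and mir-200a-3p, mir-200b-3p and mir-429-3p are named only. In the 3p arms the seed comes in a pair of versions, AAUACUG in mir-200b, mir-200c and mir-429, and AACACUG in mir-200a and mir-141, and both clusters carry both.
mir-200c-3p: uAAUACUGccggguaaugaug
mir-141-3p: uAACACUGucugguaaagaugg
mir-200b-5p: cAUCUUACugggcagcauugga
mir-200a-5p: cAUCUUACcggacagugcugg
mir-200c-5p: cGUCUUACccagcaguguuug
mir-141-5p: uCCAUCUUccagugcaguguug

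For the arms named only, bases were compared on the RefSeq hairpin from the most used start of the reads. Both seeds differ by U4C, taking mir-200b-3p first and mir-200a-3p second, with positions counted from 1 at the 5′ end. Over the first 21 bases mir-200b-3p and mir-200c-3p differ at 1 base (U11G), and mir-200a-3p and mir-141-3p also at 1 (C17A). The latter pair shares its first 16 bases, so that a read of 16 nt fits both. Such reads were met only in BN-Lx liver 3 and SHR liver 3, where 0.5 read was credited to each arm. The shortest reads were of 17 nt in the six-tissue set and of 15 nt in the further livers. The 5p arms of mir-200b and mir-200a have the same seed, AUCUUAC.

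For each library the authors deposited the reads at every start and end position of a hairpin, and the reads of an arm were summed here. Total reads of the six-tissue set lay between 26880 (BN-Lx testis) and 1064894 reads, and the further livers between 1167607 and 3229461. Levels are given as reads over the outlier-corrected mean (ocm), the mean over 596 arms of known loci without the 3 arms with most reads, which lay between 31.5 reads in BN-Lx testis and 2263 reads in SHR liver 3. A count of 0 allows up to 3 reads, and every interval or limit covers counting error only. Of 12 checks of marker miRNAs, 10 gave the highest level in the labelled tissue. The exceptions were both kidneys, since the kidney list (mir-192 and mir-204) was higher in liver. The livers are the only samples with replicates inside a strain, and no pair of the same strain was alike within sampling noise.

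The family was most abundant in kidney in both rats. It made up 0.743% of all reads in BN-Lx kidney (95% exact interval 0.720% to 0.766%) and 3.22% in SHR kidney (3.18% to 3.27%). Next came BN-Lx brain with 0.209%. The 6 livers held between 0.0523% and 0.160%. Spleen held 0.0214% in BN-Lx and 0.0537% in SHR, the latter between the six-tissue livers of BN-Lx (0.0523%) and SHR (0.0555%). Heart held 0.00768% and 0.00857%. The SHR brain was lowest of all, at 0.00476%, or 41 of 860468 reads. In both testes together only 15 family reads were found, at depths of 26880 and 29131 reads, so a low level there was hardly detectable.

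In kidney, mir-200a-3p, from the middle hairpin of the chromosome 5 cluster, was the member with most reads. It was read 2040 times in BN-Lx and 11844 times in SHR kidney, or 2.93 and 14.3 times the ocm. In brain it reached 1.07 in BN-Lx and 0.0308 in SHR, in the six-tissue livers 0.326 and 0.398, in spleen 0.114 and 0.310, in heart 0.0543 and 0.0672, and in testis 0.0952 and 0.171. Thus both kidneys stood above all other libraries of the set, and the brains lay furthest apart, with BN-Lx next below the kidneys in this set and SHR at the bottom.

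The neighbour mir-200b-3p was also highest in both kidneys and, within the six-tissue set, next in BN-Lx brain. Its levels in kidney were 2.13 in BN-Lx and 6.28 in SHR times the ocm, from 1485 and 5211 reads. It came to 0.318 and 0.00352 in brain, 0.207 and 0.205 in the six-tissue livers, 0.0198 and 0.0598 in spleen, and 0.0317 and 0.0853 in testis, the last from 1 and 3 reads. In heart it was read 2 times in BN-Lx and 0 times in SHR. The third member of the cluster, mir-429-3p, reached 0.443 and 1.79 in kidney, 0.0783 in BN-Lx brain, 0.0228 and 0.0188 in the livers, 0.00233 and 0.00907 in spleen, and was read 0 times in SHR brain and in both hearts. SHR kidney was at least 436-fold above the SHR heart for this arm and BN-Lx kidney at least 67.9-fold above the BN-Lx heart, when heart was set to 3 reads.

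The members on chromosome 4 were read less often. In kidney mir-200c-3p stood at 0.155 in BN-Lx and 0.216 in SHR times the ocm (108 and 179 reads), and mir-141-3p at 0.115 and 0.238 (80 and 197 reads). For mir-200c-3p the levels in the other tissues were 0.0308 and 0.00176 in brain, 0.00759 and 0.00941 in the six-tissue livers, and 0.0385 and 0.0345 in spleen. For mir-141-3p they were 0.0189 in BN-Lx brain with 0 reads in SHR brain, 0.00253 and 0.00235 in the livers from 1 read each, and 0.00584 and 0.0435 in spleen. Neither was read in testis, where 3 reads would be 0.0952 and 0.0853 of the ocm, a limit not far below the kidney level itself. For both, spleen or BN-Lx brain followed the kidney within this set, and not liver.

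**Figure D1:**
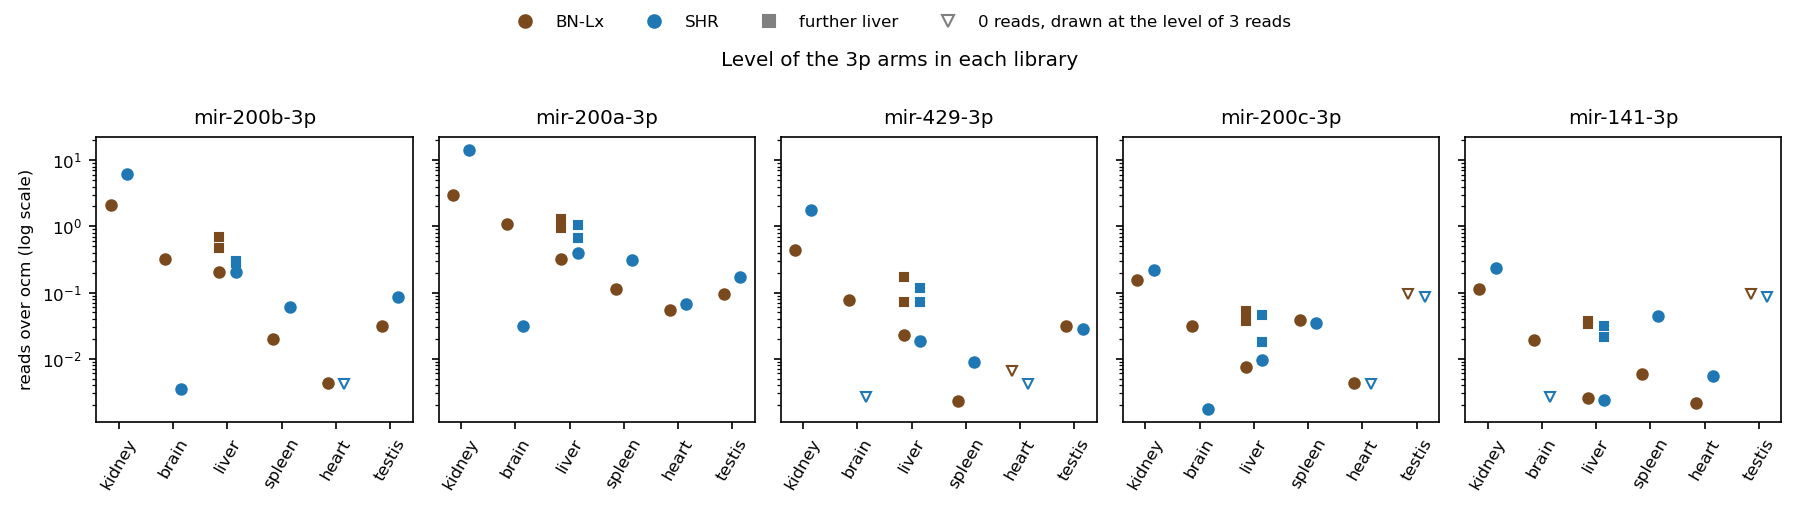
Level of the 5 3p arms as reads over the ocm (vertical, log scale) in each tissue, with BN-Lx in brown and SHR in blue, circles for the six-tissue set, squares for the further livers and open triangles for libraries with 0 reads, drawn at 3 reads. Both kidneys lie highest in every panel, the BN-Lx and SHR brains lie far apart, and the further livers lie above the six-tissue livers of the same strain.

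These differences were tested with edgeR's quasi-likelihood test, kidney against the mean of the other 5 tissues and the strain as a term, so that a tissue had 1 library of each strain. Of the 9 arms, 7 passed the filter on low reads, and 6 of these were called higher in kidney at an adjusted p of 0.05, where 15.5% of the 457 arms tested were called higher (22.5% in either direction). The filter keeps an arm that is read in kidney alone, so the arms that passed are no sample of all members. The median log2 fold change of the 7 was 5.72, beside 0.18 over all arms tested. The log2 fold change was 7.58 ± 0.97 (SE) for mir-429-3p (adjusted p = 0.000168), 6.92 ± 0.85 for mir-200b-3p (adjusted p = 0.000113) and 5.56 ± 0.73 for mir-200a-3p (adjusted p = 0.000136). It was 5.72 ± 0.97 for mir-141-3p (adjusted p = 0.00141) and 5.64 ± 0.81 for mir-200c-3p (adjusted p = 0.000405). Where a tissue has 0 reads these values depend on the prior count of the fit, so the sizes are no bounds. Each of these 5 calls was kept in all 22 other fits, in which the highest adjusted p of any of them was 0.0173.

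The 5p arms were less certain. For mir-200b-5p the log2 fold change was 6.86 ± 2.10 (edgeR adjusted p = 0.0403), but only 8 of 22 other fits called it, and without the SHR kidney it fell to -1.16 (adjusted p = 1), since BN-Lx kidney held 1 read of it. The arm mir-141-5p, at 3.54 ± 1.27, missed the threshold (adjusted p = 0.0658). With the 8 and 13 reads of mir-200c-5p and mir-200a-5p in 12 libraries no test was made. All 8 reads of mir-200c-5p were from kidney, 7 in BN-Lx and 1 in SHR, and so were 11 of the 13 reads of mir-200a-5p.

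The same fit was used to set single tissues against each other. Kidney was called higher than brain, liver, spleen, heart and testis for mir-200a-3p, mir-200b-3p and mir-429-3p, where the share of all arms called higher was 25.8%, 10.7%, 11.2%, 8.32% and 16.4% in turn. For mir-200c-3p and mir-141-3p the call was made against all tissues but spleen, where the log2 difference was 2.37 ± 0.95 (edgeR adjusted p = 0.0940) and 2.93 ± 1.20 (adjusted p = 0.0975). Neither arm was read in testis. With testis set to 3 reads, kidney was only 1.63-fold (BN-Lx) and 2.53-fold (SHR) above it for mir-200c-3p. For mir-141-3p it was 1.21-fold and 2.79-fold above. Among the other 5 tissues few neighbours differed beyond their spread. Brain and liver were called above heart for mir-200b-3p (adjusted p = 0.0221 and 0.0237), and spleen above heart for mir-200c-3p (adjusted p = 0.0400). None of the 10 pairs without kidney was called for mir-200a-3p, mir-429-3p or mir-141-3p, although scaling to total reads called brain above heart for mir-200a-3p (adjusted p = 0.03695) and mir-429-3p (adjusted p = 0.0355). The background in either direction was 61.1% for brain against liver, 56.5% against spleen, 55.6% against heart and 43.1% against testis, 15.1%, 20.4% and 28.9% for liver against spleen, heart and testis, 21.2% and 28% for spleen against heart and testis, and 29.3% for heart against testis.

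Under the 5-fold rule, by which an arm is specific to a tissue if its scaled reads exceed those of every other tissue 5 times in both strains, 12 of 698 arms (1.72%) were kidney-specific. Of the family, mir-200b-3p, mir-429-3p, mir-141-3p and mir-200c-5p were among them, with 0 reads taken as 0. With testis set to 3 reads, BN-Lx kidney was only 1.21-fold above testis for mir-141-3p, and the single SHR kidney read of mir-200c-5p lies under the limit of 3 reads in every other SHR tissue. The arm with most reads, mir-200a-3p, was not, because in BN-Lx the kidney exceeded the brain only 2.74-fold. In SHR its kidney level exceeded that of the next tissue, liver, 35.9-fold. For mir-200c-3p the spleen was the next tissue in both strains, at 4.03-fold and 6.27-fold below kidney.

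Other miRNAs known from epithelium were described for comparison (mir-205, mir-203, mir-182, mir-183, mir-96, mir-375, mir-192, both mir-194 hairpins and mir-215). Of these 16 arms 12 were tested, 11 were called higher in kidney and 1 was not, where 15.5% of all arms were, and their median log2 fold change was 3.58, beside 0.18 over all arms. The exception was mir-375, a miRNA of endocrine cells, at 1.65 ± 0.89 (edgeR adjusted p = 0.216). The keratinocyte miRNA mir-205 had the largest change among them, at 6.67 ± 0.56 (adjusted p = 6.7e-06). In whole tissue, fewer cells of a type and less of an RNA per cell cannot be told apart.

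To see which miRNAs were distributed most like the family, levels over the 12 libraries were correlated on the scale log2(reads over ocm + 0.01) among 380 arms with a mean of at least 10 reads. The libraries differ widely in depth and share their rats, so r is only a description. Of arms outside the family, mir-182 was nearest to mir-200a-3p (r = 0.932), followed by mir-196b* (the less read arm, r = 0.845), mir-196a (r = 0.844), mir-10a* (r = 0.794) and mir-196b (r = 0.791). For mir-200c-3p the nearest was mir-205 (r = 0.895), and then mir-10a* (r = 0.859), mir-196b* (r = 0.841), mir-196a (r = 0.833) and mir-196b (r = 0.825). The miRNAs mir-10a, mir-196a and mir-196b are encoded in the Hox gene clusters. Within the family mir-200a-3p was closest to mir-200b-3p (r = 0.975) and mir-429-3p (r = 0.947), and mir-200c-3p to mir-141-3p (r = 0.935), that is each to the members of its own cluster.

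The clusters were then compared within each library, where no scaling is needed. In BN-Lx kidney the chromosome 5 hairpins gave 3841 reads and the chromosome 4 hairpins 201, a ratio of 19.1 (95% exact interval 16.6 to 22.1), and in SHR kidney 18873 and 404, a ratio of 46.7 (42.3 to 51.7). The intervals of the kidneys do not overlap. BN-Lx brain was at 28.3 (22.5 to 36.1), and the 4 further livers ranged from 15.4 in SHR liver 3 to 28.9 in SHR liver 2. The six-tissue livers had ratios of 60.3 and 33.8, but these rested on only 4 and 8 reads of chromosome 4.

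Over all reads spleen had the lowest ratios, with 2.95 in BN-Lx (2.05 to 4.34) and 3.77 in SHR (2.79 to 5.15). They came from 118 and 40 and from 211 and 56 reads. Both intervals lie below those of the kidneys, the livers and the BN-Lx brain. Of the family reads in BN-Lx spleen mir-200c made up 20.9% and mir-141 4.43%, and of those in SHR spleen 7.12% and 13.9%. The spleens thus differed in which of these members stood out. With a single spleen per strain, strain and rat cannot be told apart here. In the kidneys mir-200c and mir-141 were each below 3%. The spleens also had the highest sums of the pancreas markers (mir-216a, mir-216b, mir-217 and mir-375, 8 arms) of all tissues in their strain, at 0.188 times the ocm in BN-Lx, where 8 of 8 arms were read, and 0.636 in SHR, where 7 of 8 were. Over the other 10 libraries of the set this sum ran from 0 in both hearts to 0.0634, apart from SHR testis with 0.512 from 18 reads of 1 arm. Their part in the ratio of the spleens was not tested. The ratio in heart was 9.33 (2.88 to 48.0) and 9.80 (3.93 to 31.5) from 3 and 5 reads of chromosome 4, and testis had none. The intervals of the hearts overlap those of the spleens. That of SHR brain (ratio 19.5, 5.05 to 167, from 2 reads of chromosome 4) overlaps that of SHR spleen. A low ratio is thus not shown to be particular to spleen.

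**Figure D2:**
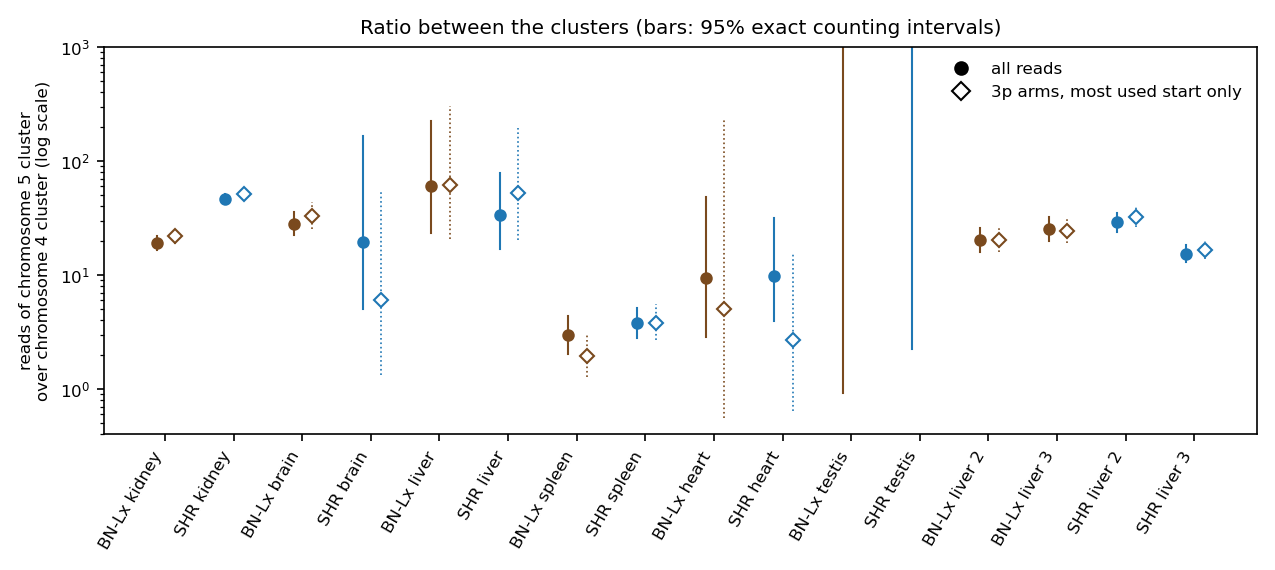
Reads of the chromosome 5 hairpins over reads of the chromosome 4 hairpins (vertical, log scale) in each library, BN-Lx in brown and SHR in blue, with filled circles for all reads, open diamonds for 3p reads at the most used start, and bars for 95% exact intervals, which run off the top where chromosome 4 has 0 reads. The spleens lie lowest of the libraries with narrow bars, at 2.95 and 3.77, and the kidneys lie apart at 19.1 and 46.7.

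The ratio of both seeds varied less. Reads of the 3p arms with AAUACUG over those with AACACUG were 0.897 (0.842 to 0.954) in BN-Lx kidney and 0.571 (0.554 to 0.588) in SHR kidney. In the 6 livers the ratio ran from 0.385 in SHR liver 2 to 0.723 in BN-Lx liver 1, so that the livers lay as far apart as the kidneys. BN-Lx brain was at 0.392 (0.357 to 0.431). In every library but the SHR heart, with 0 reads of the first seed and 53 of the second, both seeds were read, and reads of arms with AACACUG were more in all 16. With reads at the most used start alone this held for 14 of 16, as BN-Lx testis then had 2 reads with AAUACUG and 0 with AACACUG, and SHR testis 3 of each.

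In kidney the strains were compared without a test, because there was 1 kidney of each. In SHR the level of mir-200a-3p was 4.87-fold that in BN-Lx (95% exact interval 4.65 to 5.11), that of mir-429-3p 4.05-fold (3.58 to 4.60) and that of mir-200b-3p 2.94-fold (2.78 to 3.12). Of the 3p arms those on chromosome 4 had lower ratios, with 2.07-fold for mir-141-3p (1.59 to 2.71) and 1.39-fold for mir-200c-3p (1.09 to 1.78). Their 5p arms, with few reads, lay to both sides. The arm mir-141-5p was 3.78-fold higher in SHR (6 and 27 reads, 1.53 to 11.2), and mir-200c-5p was 8.34-fold higher in BN-Lx (7 reads and 1 read, 1.07 to 376). Among 8 member arms with at least 10 reads in both kidneys together, 6 were at least 2-fold higher in SHR, where 15.6% of 347 arms were, and 1 (mir-200a-5p, 7 and 4 reads) was at least 2-fold lower, where 17% were. The median log2 ratio over all these arms was -0.11.

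The largest ratio was that of mir-200b-5p, with 1 read in BN-Lx and 326 in SHR kidney (274-fold, interval 48.8 to 10838). On the other arm of the same hairpin the kidneys held 1485 and 5211 reads, so that the 5p arm took 0.0673% of mir-200b in BN-Lx (0.00170% to 0.374%) and 5.89% in SHR (5.28% to 6.54%). In the livers this share was no steadier. It was 20.4%, 2.41% and 2.87% in BN-Lx livers 1, 2 and 3 and 6.45%, 10.2% and 0.147% in SHR livers 1, 2 and 3, the last from 1 read in 678. Livers of SHR alone thus differed by about as much as the kidneys did. In BN-Lx brain the share was 10.4%. The 5p arm of mir-141 took 6.98% in BN-Lx kidney and 12.1% in SHR kidney, with overlapping intervals, and 35.1% in SHR spleen (20.2% to 52.5%, 13 of 37 reads).

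**Figure D3:**
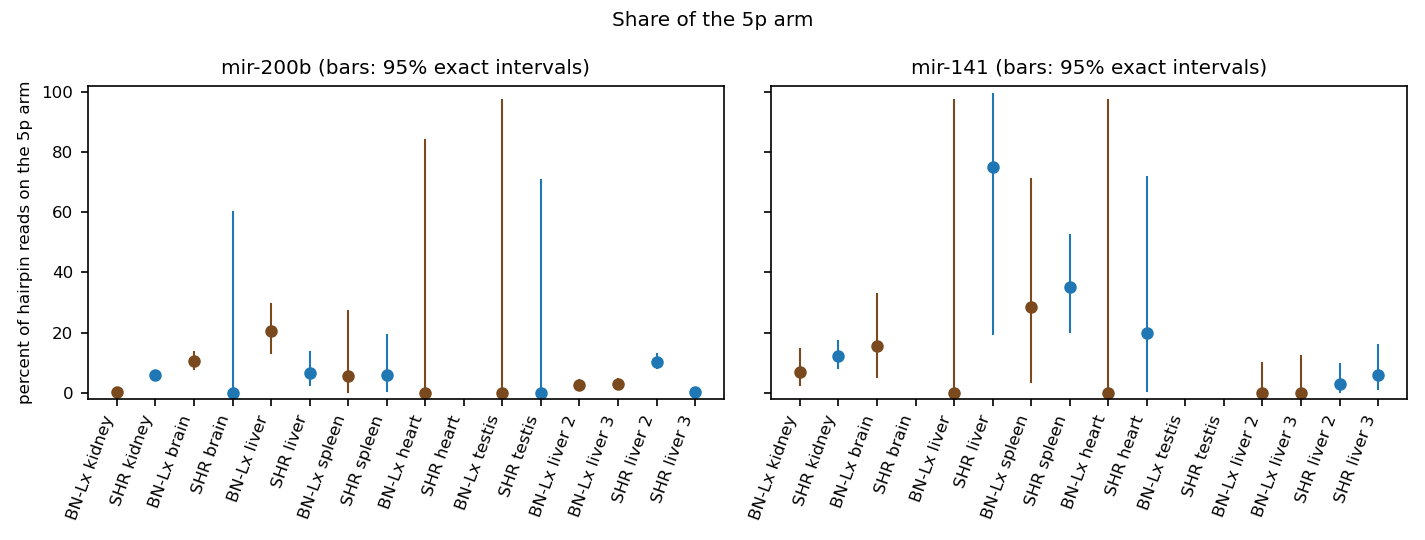
Percent of the reads of mir-200b (left) and mir-141 (right) that lie on the 5p arm in each library, BN-Lx in brown and SHR in blue, with 95% exact intervals as bars. For mir-200b the 6 livers run from 0.147% to 20.4%, with SHR kidney at 5.89% inside this range and BN-Lx kidney at 0.0673% below it.

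For the livers, where 3 rats of each strain were sequenced, no member was called between the strains. With edgeR, 0 of 271 arms were called (0%), with 6 at an unadjusted p under 0.05 and 0 called by DESeq2, so neither were the 6 member arms that were tested. The mean level of mir-200a-3p over the BN-Lx livers was 0.851 ± 0.485 (SD, n = 3) and over the SHR livers 0.702 ± 0.321 (exact permutation test, two-sided p = 0.8), and that of mir-200b-3p 0.458 ± 0.244 and 0.260 ± 0.0493 (p = 0.3). For 3 against 3 livers the smallest p is 0.1. The filter dropped mir-141-5p, which was read 0 times in each BN-Lx liver and 3, 2 and 3 times in SHR livers 1, 2 and 3. Its groups do not overlap (exact permutation test, two-sided p = 0.1), but a count of 0 allows up to 3 reads. The permutation test takes no account of a possible pairing by replicate number. Between livers of the same number the scaled level was higher in BN-Lx in 3 of 3 for mir-200b-3p and for mir-141-3p. Livers 1 did not differ beyond counting error, however. They held 82 reads of mir-200b-3p in BN-Lx and 87 in SHR (SHR over BN-Lx 0.987-fold, 0.722 to 1.35). Of mir-141-3p they held 1 read each. With the number as a block the log2 difference of mir-200b-3p was -0.68 ± 0.32 (edgeR adjusted p = 0.539). That of mir-141-3p was -0.32 ± 0.47 (edgeR adjusted p = 0.851). The log2 difference, SHR minus BN-Lx, was -0.21 ± 0.64 (SE) for mir-200a-3p and -0.77 ± 0.55 for mir-200b-3p (edgeR adjusted p = 0.995 for both).

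For each 3p arm the six-tissue livers were lower than the further livers of the same strain. For mir-200a-3p the former had 0.326 and 0.398 and the latter 0.944, 1.28, 1.04 and 0.670. For mir-141-3p they had 0.00253 and 0.00235 from 1 read each, and 0.0371, 0.0332, 0.0316 and 0.0214. Thus within BN-Lx alone the highest liver exceeded the lowest 3.93-fold for mir-200a-3p and 14.7-fold for mir-141-3p, while the 4 further livers differed at most 1.91-fold and 1.73-fold. Those 4 differed more for mir-200b-3p (2.51-fold), mir-429-3p (2.41-fold) and mir-200c-3p (2.94-fold), and for mir-200b-3p the 3 SHR livers spanned only 1.46-fold. The six-tissue livers and the further livers are separate rats and also differ in the shortest read held (17 and 15 nt), which cannot be told apart. The kidney ratios of 4.87 and 2.07 stand beside this spread.

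In brain the 3p arms differed between the strains in the opposite direction and by more. BN-Lx brain held 1531 reads of mir-200a-3p and SHR brain 35, a 34.7-fold higher level in BN-Lx (24.9 to 50.1). For mir-200b-3p there were 455 and 4 reads (90.3-fold, 35.04 to 333), and for mir-200c-3p 44 and 2 (17.5-fold, 4.56 to 149). With 0 reads in SHR brain, mir-429-3p was at least 29.6-fold higher in BN-Lx, from 112 reads, mir-200b-5p at least 14.0-fold, from 53 reads, and mir-141-3p at least 7.15-fold, from 27 reads, when SHR was set to 3 reads. All 6 member arms with at least 10 reads in both brains together were over 2-fold lower in SHR, where 14.9% of 455 arms were.

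The miRNAs of sensory and pituitary epithelium moved along in part. All 9 arms of this list (mir-96, mir-182, mir-183 and mir-7a) were read in BN-Lx brain, with a sum of 4.51 times the ocm, and 7 of 9 in SHR brain, with 2.71. The miRNAs mir-182 and mir-183, of a single cluster known from sensory organs, had levels of 0.504 and 0.218 in the brain of BN-Lx, against 0.0238 and 0.00969 in that of SHR, and both arms of mir-96 were read in BN-Lx only. The less read mir-183* stood at 0.0315 and 0.00176. The mir-7a arms made up the rest of either sum, with 1.66 and 0.975 for mir-7a-1, while mir-7a-2* went the other way, at 0.0462 in BN-Lx and 0.194 in SHR. The brain markers mir-124 and mir-9 summed to 24.9 in BN-Lx and 54.3 in SHR. The part of these cells in the result was not tested. The arms mir-7a-1* and mir-7a-2 were given equal reads in each brain. Over the 6 tissues together edgeR called no arm between the strains (0 of 270, 0%, with 12 at an unadjusted p under 0.05 and 0 called by DESeq2), and of the members mir-200a-3p, with a log2 difference of 0.18 ± 0.81, mir-200b-3p, with -0.31 ± 1.02, and mir-429-3p, with -0.29 ± 1.25, were tested.

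**Figure D4:**
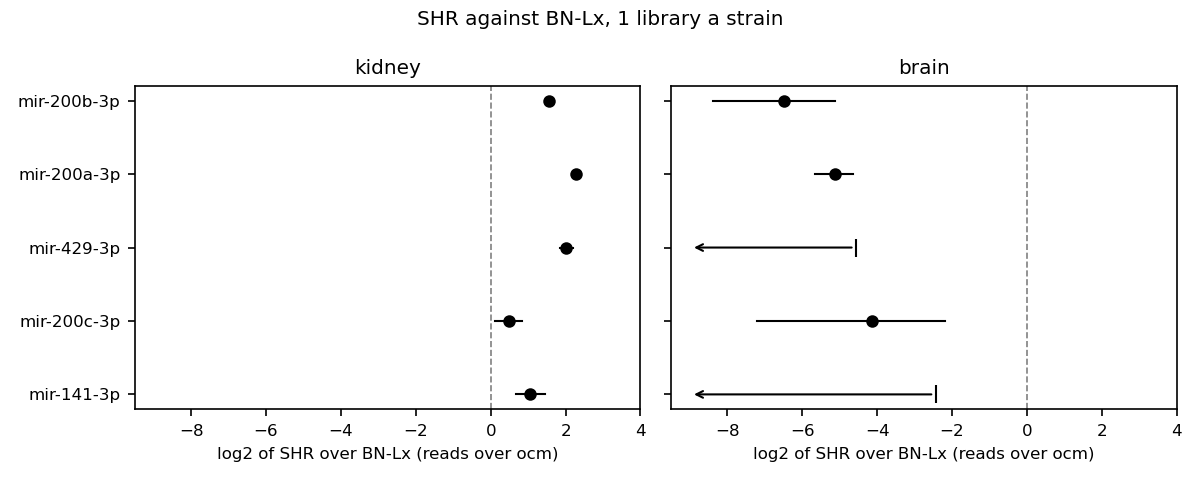
Log2 of the level in SHR over that in BN-Lx (horizontal) for the 5 3p arms in kidney (left) and brain (right), 1 library of each strain, with bars for 95% exact counting intervals and arrows from the upper limit where SHR brain has 0 reads. All arms lie to the right of 0 in kidney, from 1.39-fold to 4.87-fold, and to the left of 0 in brain.

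In spleen SHR was higher than BN-Lx for mir-141-3p (24 and 5 reads, 7.46-fold, 2.79 to 25.0), mir-200b-3p (3.02-fold, 1.63 to 5.77) and mir-200a-3p (2.71-fold, 2.10 to 3.51). For mir-200c-3p it was not (0.894-fold, 0.480 to 1.62). The sum of the pancreas markers moved the same way, from 0.188 in the spleen of BN-Lx to 0.636 in that of SHR. Its part in these ratios was not tested. Of 5 member arms with at least 10 reads in both spleens together, 4 were at least 2-fold higher in SHR, as were 18.9% of 318 arms, so that the share of the background is larger here than in kidney. In heart, where 25 and 49 reads of mir-200a-3p were found, the strains did not differ beyond counting error (1.24-fold, 0.749 to 2.09).

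Finally, the ends of the reads were examined, since a 5′ end moved by 1 nt moves the seed. In both kidneys 95.2% and 96.6% of mir-200a-3p reads started at the most used position, and 4.56% and 3.23% started 1 nt later. In BN-Lx brain it was 94.3%. Elsewhere in the six-tissue set the share dropped, to 76.0% and 71.0% in liver, 51.0% and 70.2% in spleen, 22.9% in SHR brain (8 of 35 reads), and 12% and 16.3% in heart (3 of 25 and 8 of 49 reads). In the 4 further livers it was between 98.3% and 98.9%. No such drop was seen for mir-200b-3p, for which the share was between 94.1% and 97.3% in all libraries with at least 17 reads.

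Reads were also scaled to the depth of the library (RPM, its reads scaled to the same total in every library). Outside kidney, mir-200a-3p reads that started elsewhere varied less in the six-tissue set than those at the most used start. They came to between 31.4 and 112 RPM, with a median of 74.0, in the 10 non-kidney libraries of that set. Reads at the most used start ran from 0 to 1356 RPM in the same libraries. The highest values elsewhere, 112 and 103 RPM in the testes, rest on 3 reads each. In the further livers reads that started elsewhere came to between 6.81 and 11.99 RPM. In kidney, where reads at the start were at 3571 and 19134 RPM, those elsewhere rose to 178 and 672. For mir-200b-3p they were at a median of 1.68 RPM in the same 10 libraries. The levels of mir-200a-3p in heart, SHR brain, spleen and testis given above thus hold a large part of reads without the usual 5′ end. With reads at the most used start alone, the log2 fold change of kidney was 6.55 ± 0.91 instead of 5.56 (edgeR adjusted p = 0.000220), and the level in BN-Lx brain was 143-fold that in SHR brain instead of 34.7-fold.

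**Figure D5:**
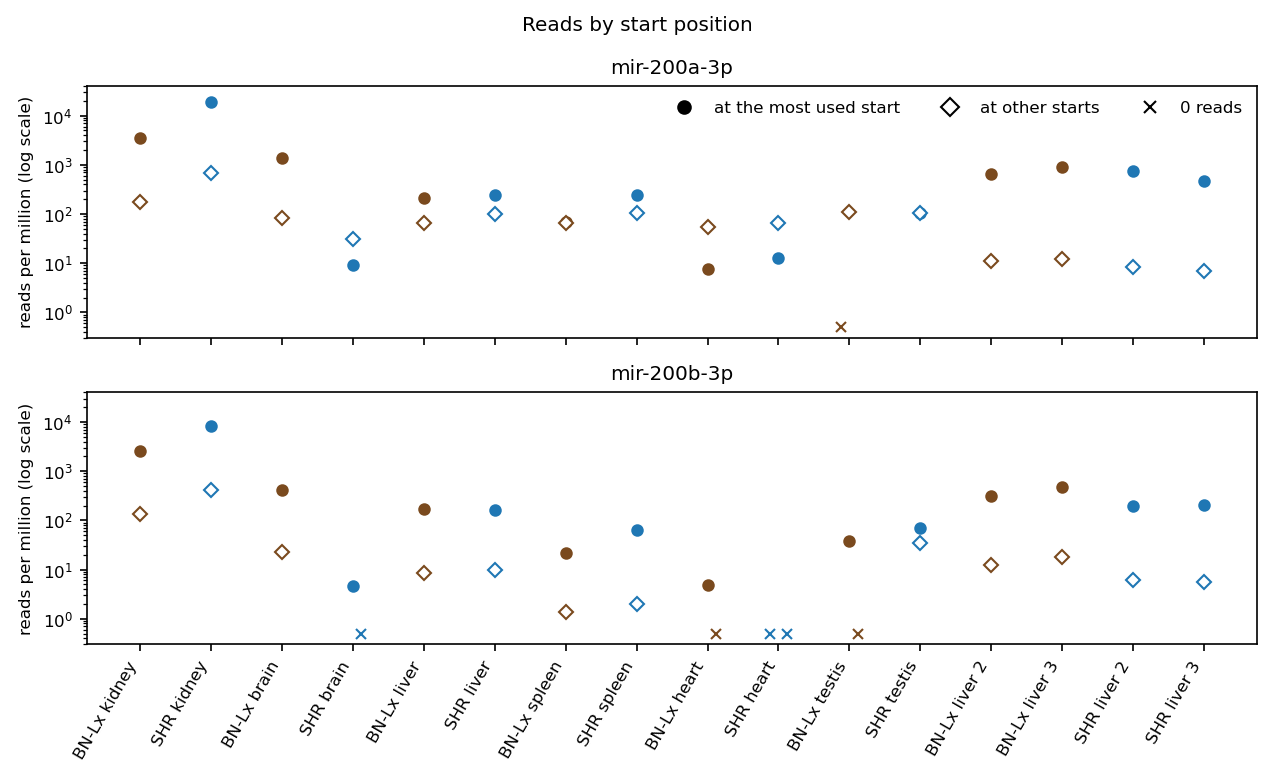
RPM of mir-200a-3p (top) and mir-200b-3p (bottom) in each library on a log scale, with filled circles for reads at the most used start, open diamonds for reads at other starts and crosses for 0 reads, BN-Lx in brown and SHR in blue. For mir-200a-3p the diamonds stay between 31.4 and 112 in the 10 non-kidney libraries of 6 tissues and lie above the circles in heart and in SHR brain.

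Over the 12 libraries of the 6 tissues 97.6% of mir-141-3p, 96.6% of mir-429-3p and 95.1% of mir-200b-3p reads started at the most used position, and 84.3% of mir-200c-3p reads did (80.3% to 87.7%). The most used read length was 22 nt for all of them but mir-200c-3p, with 21 nt. The study names the read arm of mir-429 5p, and it is called 3p here from its place on the RefSeq hairpin. Its reads lie past the middle of its RefSeq hairpin, 25 bases further along than in the deposited numbering, and 0 of 2563 reads fell on its other arm. The first 25 bases of the RefSeq hairpin are thus outside the deposited numbering, and the absence of 5p reads cannot be read as absence of that arm.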

How the data were processed

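Small RNA was sequenced by the authors on the SOLiD platform, and per the paper's methods reads were mapped with SHRiMP to hairpins on RGSC3.4 and in miRBase, and only perfect matches were kept. Reads with several hits were shared out equally, per the deposited column description. The deposited files give the resulting estimated count at each start and end position of a hairpin, without normalization. Testis libraries, and liver of the SHR rat, were amplified with more PCR cycles.

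Here reads within 20 nt of the most read midpoint of a hairpin were summed to that arm and the rest to the other. Outside the family the most read arm carries the name of the hairpin and the other arm a *. These estimated counts were rounded and tested with edgeR 4.0.16 (quasi-likelihood, TMM factors, filterByExpr, Benjamini-Hochberg at 0.05, two-sided), with tissue and strain as terms for tissues, strain alone for livers, and tissue and strain for strains over tissues; DESeq2 1.42.0 was the alternative. Tables and plots were made with matplotlib 3.10.9, scipy 1.17.1, pandas 2.3.3 and numpy 2.4.6 in Python 3.11.15, and models in R 4.3.3. Intervals are exact (Clopper-Pearson, 95%). The fits were tested on simulated data. All arms of the members were named, with a list of epithelial miRNAs and the 5 arms of other hairpins most correlated with mir-200a-3p and with mir-200c-3p. The members and lists were chosen with earlier results of these data known. P-values measure the spread between these samples. In the fits over tissues that spread is what differs between the 2 rats from tissue to tissue once strain is fitted. For kidney against the other tissues it had 5 residual degrees of freedom. It is not the spread between rats of a strain, which only the livers hold.

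Livers of both strains share replicate numbers. With group means removed, livers of the same number correlated at 0.58, 0.55 and 0.27 across 283 arms, and the pairing was taken to hold, as both livers of number 1 belong to the set of 6 tissues per the labels. A fit blocked on that number called 0 arms in edgeR (smallest adjusted p = 0.458, with 22 at an unadjusted p under 0.05).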

Additional observations from a re-analysis of the deposited data

Results flagged for a closer look

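In kidney and brain the strain difference had opposite directions for 6 arms of the family, with counting intervals off 1 in both tissues; with 1 library per strain and tissue the difference between the tissues was not tested. For mir-200a-3p the level in SHR kidney was 4.87-fold that in BN-Lx, and in brain BN-Lx was 34.7-fold above SHR. The corresponding values were 2.94-fold and 90.3-fold for mir-200b-3p, 4.05-fold and at least 29.6-fold for mir-429-3p, 1.39-fold and 17.5-fold for mir-200c-3p, 2.07-fold and at least 7.15-fold for mir-141-3p, and 274-fold and at least 14.0-fold for mir-200b-5p. Outside the family mir-182 had levels of 0.622 and 0.972 times the ocm in BN-Lx and SHR kidney and of 0.504 and 0.0238 in brain. Other arms named above as most like the family went both ways in kidney. From BN-Lx to SHR, mir-196a rose from 0.134 to 0.375, mir-196b* from 0.0489 to 0.276 and mir-10a* from 0.0575 to 0.206. Against this, mir-196b fell from 0.295 to 0.146 and mir-205 from 1.26 to 0.566. The sum of the epithelial list, which holds mir-182, fell from 81.8 to 58.0. Of these sums mir-205 and mir-203 together made up only 3.25 and 1.67, so the sum says little about members of that list with fewer reads. The kidney list, which shares mir-192 with the epithelial list, fell from 77.5 to 52.7. No group had enough libraries for a check of single outlying samples.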

How the results depend on the processing

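Kidney against the other 5 tissues gave 103 called arms (71 higher, 32 lower). It gave 58 with the 4 further livers added and 12 under the 5-fold rule (12 higher, 0 lower), the cause of the former not being tested and the latter being a different rule. The other 21 settings stayed within 1.5 times, with 70 to 101 when each of 12 libraries was left out. The split of higher and lower calls moved to 52 and 65 with DESeq2, 53 and 49 with RLE factors and 49 and 38 with the ocm as library size, as the median log2 change of all arms moved from 0.18 to -0.10 with RLE factors and -0.05 with the ocm; mir-200a-3p, mir-200b-3p, mir-429-3p, mir-200c-3p and mir-141-3p stayed higher in kidney in all. The call for mir-200b-5p was lost in 14 of 22 settings (adjusted p from 2.6e-05 to 1), running from -1.16 without the SHR kidney to 9.36 without the BN-Lx kidney, and that for mir-141-5p was gained in 5 of 21. Leaving out the strain block called 117 arms, and over tissue pairs 2492 in place of 2313. Under total reads mir-429-3p and mir-141-3p lost the call between kidney and testis (adjusted p = 0.0662 and 0.114) and mir-200c-3p that between spleen and heart (0.0516).

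No setting called an arm between strains in liver (0 to 0 with each of 6 livers left out, 0 with the replicate block) or over the 6 tissues (0 without the tissue block). Directions there, none past the threshold, turned in liver without SHR liver 1 to 0.21 for mir-141-3p, 0.17 for mir-200a-3p, 0.11 for mir-200c-3p and 0.25 for mir-429-3p, without BN-Lx liver 2 to 0.20 for mir-141-3p, without BN-Lx liver 3 to 0.16 for mir-200a-3p, 0.15 for mir-200c-3p and 0.62 for mir-429-3p, and in the further livers alone to 0.17 for mir-200b-5p. The lowest values with a liver left out were -0.93 for mir-141-3p, -0.69 for mir-200a-3p, -1.24 for mir-200c-3p and -0.87 for mir-429-3p. Over tissues they turned for mir-200b-3p to 1.40 and mir-429-3p to 1.83 without the tissue block, for mir-200b-3p to 0.83 without the brains, and for mir-200a-3p to -0.22 without the kidneys and -0.0943 without the spleens.

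Scaled to total reads the kidney ratio was 5.28 for mir-200a-3p and 3.19 for mir-200b-3p. With reads at the most used start alone, chosen after seeing the data, the cluster ratio was 1.94 in BN-Lx spleen and 2.67 in SHR heart, and the seed ratio 0.873 in BN-Lx spleen, 0.5 in BN-Lx heart, 0.75 in SHR brain and 0.775 in SHR liver, while BN-Lx testis turned to 2 reads against 0 and SHR testis tied at 3 each. With reads of at least 20 nt the 5p share of mir-200a was 0.0381% and the share of mir-200a-3p at its most used start 95.6%. The seed ratio counts the most read arms only, so that alternative is the value itself. Testis depth limits all values there.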
